A study of Mus musculus with 20 samples.

Results

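Neutrophils were a small population of the dissociated mouse spinal cord, and 531 of 21016 cells (2.53%) were assigned to them. The members are the cells that the authors' own annotation placed in cluster 9, which they named neutrophils, taken from all 6 single-cell libraries. They are described here across all genes, by day after surgery and by diet, a comparison that asks how blood-derived granulocytes of the cord differ after spinal cord injury (SCI) and when microglia have been depleted.

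All mice were female C57BL/6J, 8 to 10 weeks old when purchased, and ate either vehicle chow or chow labelled as 1200 ppm PLX5622 (the study's methods also state a lower concentration), an oral inhibitor of the receptor Csf1r on which microglia depend for survival, from 2 weeks before surgery. The vehicle groups were sham (laminectomy without contusion), SCI at 7 days post-injury (dpi) and SCI at 28 dpi, with a contusion at spinal level T9, and the PLX5622 groups were the same 3. The sham labels name both time points, so the day of a sham cell is not known. Each group was 1 library made from the pooled cords of several mice, from a 1 cm piece of cord that had not been cleared of blood, so a neutrophil of the tissue and one of its vessels cannot be told apart. PLX5622 also acts on other cells that carry Csf1r, and the depleted libraries still held 29, 61 and 126 microglia in the sham, 7 dpi and 28 dpi groups. With 1 library per group there was no replicate, no difference was tested, and every interval given here is an exact 95% interval that covers counting error only.

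Neutrophils are short-lived granulocytes that are made in the bone marrow and enter injured tissue first among the blood leukocytes. As they mature they fill their granules in order. Primary granules with myeloperoxidase and elastase form in promyelocytes, and secondary granules with lactoferrin and cathelicidin in myelocytes and metamyelocytes. Gelatinase granules with Mmp9 form in band and segmented cells. The receptors Cxcr4 and Cxcr2 act in opposite ways on release from the marrow, Cxcr4 retaining cells and Cxcr2 calling them out, and Cxcr4 is known to return on aged cells.

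The 5 genes listed as markers were all at their highest in this cluster. S100a8 and S100a9, the calprotectin subunits that fill the neutrophil cytosol, stood at 133571 and 162316 CPM (UMIs of a gene divided by all UMIs of the pooled cells, times 1000000) against 9919 and 11290 in the next cluster. Retnlg, a secreted resistin-like protein of mature neutrophils, was at 15606 CPM against 88.0. Cxcr2, the receptor for Cxcl1 and Cxcl2, was at 581 CPM against 9.53, and the gelatinase Mmp9 was at 1559 CPM against 15.8. The clustering used these same genes in these cells, so the contrast describes the cluster and tests nothing. Ly6g, the surface antigen most used to gate mouse neutrophils, was not among the 16003 genes of the table and was not analysed here.

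Neutrophils carried 1273775 UMIs in all, with a median of 1563 UMIs and 549 genes per cell and a range of 503 to 21844 UMIs. The 6 libraries held 64, 223 and 189 neutrophils (vehicle sham, 7 dpi and 28 dpi) and 11, 12 and 32 neutrophils (PLX5622 sham, 7 dpi and 28 dpi), in an order that is kept for all values below. Their pooled UMIs came to 278865, 473115 and 362712 under vehicle and to 54490, 26536 and 78057 under PLX5622, so that 1 UMI was worth 3.59, 2.11 and 2.76 CPM and 18.4, 37.7 and 12.8 CPM. Median depth per neutrophil was 3351.5, 1238 and 1453 UMIs under vehicle and 3534, 2045.5 and 1916 UMIs under PLX5622, highest in the sham libraries. Of 20972 barcodes 44 were found in 2 libraries, 2 of them among neutrophils. As doublets 28 neutrophils were called, 2, 15 and 11 in the vehicle libraries and 0 under PLX5622. The number of calls per library was set in advance by its number of cells. Few cells of the small PLX5622 libraries could thus be called, and the 0 there is no measure of doublets. A fold below is a ratio of pooled CPM between 2 libraries, given as log2 with its interval, for genes with at least 50 UMIs in the pair. A gene is called higher or lower when it differs by at least 2-fold.

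Neutrophils were present in every library, sham included. They made up 3.57% (2.76 to 4.53), 3.00% (2.62 to 3.41) and 1.92% (1.66 to 2.21) of cells under vehicle and 2.24% (1.12 to 3.97), 2.38% (1.24 to 4.12) and 3.40% (2.34 to 4.77) under PLX5622. The lowest share was that of the 28 dpi vehicle library, whose interval did not reach those of the other vehicle libraries or of the 28 dpi PLX5622 library, and the other intervals overlapped. The denominator set the order. Counted over the leukocytes of blood origin alone (MDMs, or monocyte-derived macrophages, with monocytes, T cells, B cells and neutrophils), the shares were 15.5% (12.1 to 19.3), 5.32% (4.66 to 6.04) and 4.23% (3.66 to 4.87) under vehicle and 15.1% (7.77 to 25.4), 6.45% (3.38 to 11) and 6.69% (4.62 to 9.32) under PLX5622, highest in both sham libraries. Counted over the cells that were neither microglia nor MDMs, the vehicle shares were 6.84% (5.31 to 8.65), 9.86% (8.66 to 11.2) and 7.39% (6.40 to 8.47). Those under PLX5622 were lower at 2.42% (1.22 to 4.29), 3.50% (1.82 to 6.03) and 4.90% (3.38 to 6.85), with an interval that overlapped that of vehicle at 28 dpi and not at sham or 7 dpi. The numbers of microglia and MDMs in these denominators differed between the libraries, so a share cannot be read as a number of neutrophils per cord.

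**Figure D1:**
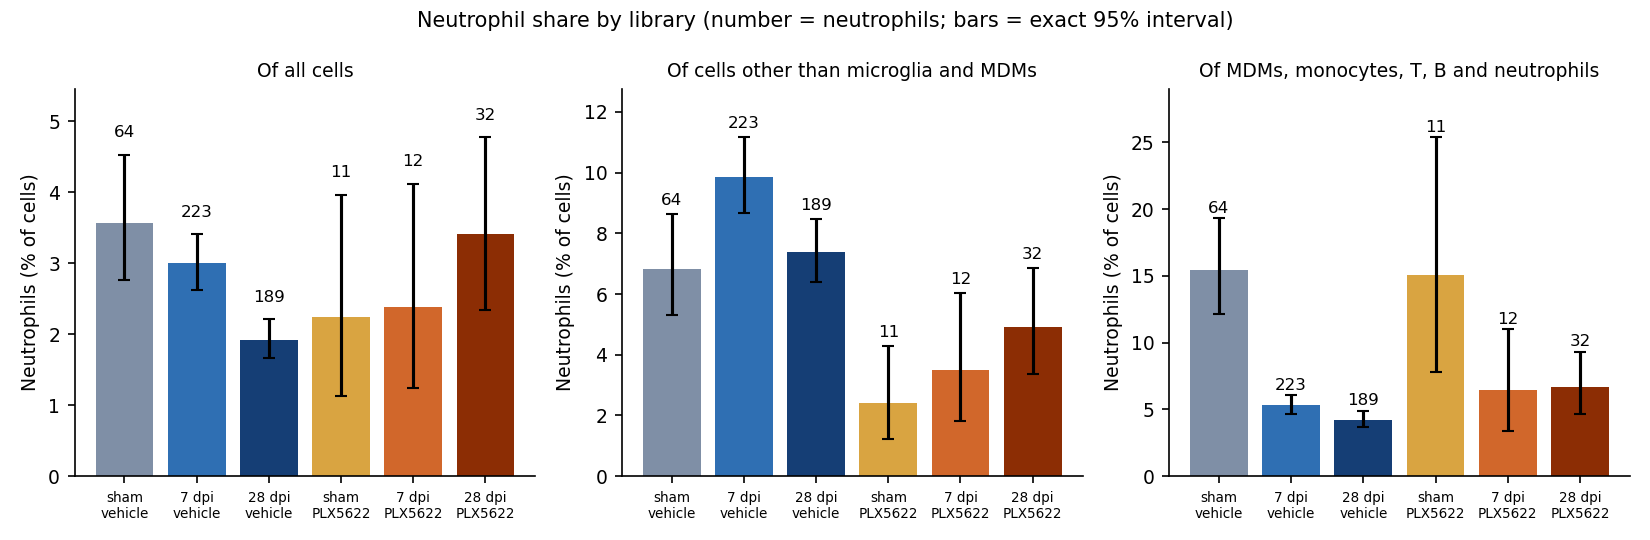
Share of neutrophils (percent of cells, y axis) in each of the 6 libraries, for 3 denominators, as bars with exact 95% binomial intervals and the number of neutrophils above each. Over all cells the shares lie between 1.92% and 3.57%, and over leukocytes of blood origin the sham libraries are highest at 15.5% and 15.1%.

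The calprotectin genes took a large part of the RNA of these cells, the smallest in the 7 dpi PLX5622 library. S100a8 was at 179291, 110844 and 117096 CPM under vehicle and 187300.0, 65383 and 170222 under PLX5622. S100a9 was at 189289, 146639 and 152658 CPM under vehicle and 198330.0, 57733 and 216265 under PLX5622. Together they took 36.9%, 25.7% and 27.0% of neutrophil UMIs under vehicle and 38.6%, 12.3% and 38.6% under PLX5622, and the median cell gave 36.9%, 29.2% and 33.1% and 31.9%, 11.5% and 33.3% of its UMIs to them. The 7 dpi PLX5622 library stood lowest by both measures, with 3 of its 12 cells under 5%, against 37 of all 531. Every other gene is measured as a share of a total that holds these 2, so the smaller calprotectin share of that library enters the level of all other genes in it. The median log2 ratio of PLX5622 to vehicle over all genes at 7 dpi was 0.23, and -0.014 when S100a8 and S100a9 were left out of the totals.

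The gelatinase granule genes and other genes of mature cells were measured in all libraries. Mmp9 was at 2022, 1380.2 and 1180.0 CPM under vehicle and 2661, 1771 and 1909 under PLX5622, level within 2-fold of its vehicle partner in each diet comparison. Mmp8, the neutrophil collagenase, was at 3977, 2118 and 2379 CPM under vehicle and 3542, 188 and 2869.7 under PLX5622. Retnlg was at 20960.0, 14544 and 12633 CPM under vehicle and 20683, 1997 and 17820.3 under PLX5622. Both were at or above 2118 CPM in every library other than that of 7 dpi PLX5622, where they rested on 5 and 53 UMIs. Their log2 ratios of PLX5622 to vehicle at 7 dpi were -3.49 (-5.12 to -2.26) and -2.86 (-3.28 to -2.48). Padi4, the enzyme that citrullinates histones in neutrophil extracellular traps, was at 273, 131 and 141 CPM under vehicle and 349, 0 and 295 under PLX5622. Of the 9 tested genes of the gelatinase granule and mature list, 2 were called lower and 1 higher at 7 dpi under PLX5622, with 6 within 2-fold. The shares over all genes were 13.5% and 19.2%, and the list median was -0.21 beside 0.23.

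The genes of the secondary granules varied widely among the neutrophils, between libraries and between cells of a library. Their proximal promoters, the 250 bases before each start site from RefSeq on build GRCm38.p6, are shown because these 5 genes make up the score by which cells are set apart next, and because C/EBP factors, among them Cebpe, are known to drive them. Capitals mark the letters TTGCNNAA, searched on both strands, which include the core of a C/EBP site.
Camp promoter, chr9:109849457-109849706, minus strand: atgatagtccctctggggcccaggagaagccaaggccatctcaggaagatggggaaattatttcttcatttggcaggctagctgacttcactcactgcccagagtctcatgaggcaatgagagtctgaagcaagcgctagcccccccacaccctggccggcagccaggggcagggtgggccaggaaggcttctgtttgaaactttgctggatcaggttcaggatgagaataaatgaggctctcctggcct
Ngp promoter, chr9:110419558-110419807, plus strand: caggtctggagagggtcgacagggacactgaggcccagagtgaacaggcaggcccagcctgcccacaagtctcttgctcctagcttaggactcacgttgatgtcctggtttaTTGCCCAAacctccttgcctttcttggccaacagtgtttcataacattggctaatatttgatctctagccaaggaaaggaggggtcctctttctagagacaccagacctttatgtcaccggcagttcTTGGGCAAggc
Ltf promoter, chr9:111019042-111019291, plus strand: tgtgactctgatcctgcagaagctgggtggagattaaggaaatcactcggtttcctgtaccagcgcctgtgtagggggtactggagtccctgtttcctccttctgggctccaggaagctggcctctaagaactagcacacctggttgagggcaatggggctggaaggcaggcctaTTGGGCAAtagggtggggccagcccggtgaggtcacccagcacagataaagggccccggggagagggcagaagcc
Lcn2 promoter, chr2:32387740-32387989, minus strand: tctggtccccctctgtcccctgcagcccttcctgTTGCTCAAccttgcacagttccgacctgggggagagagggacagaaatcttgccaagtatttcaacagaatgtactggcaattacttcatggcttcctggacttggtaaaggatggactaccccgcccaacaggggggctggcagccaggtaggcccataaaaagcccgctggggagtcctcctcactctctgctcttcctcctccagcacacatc
Chil3 promoter, chr3:106167565-106167814, minus strand: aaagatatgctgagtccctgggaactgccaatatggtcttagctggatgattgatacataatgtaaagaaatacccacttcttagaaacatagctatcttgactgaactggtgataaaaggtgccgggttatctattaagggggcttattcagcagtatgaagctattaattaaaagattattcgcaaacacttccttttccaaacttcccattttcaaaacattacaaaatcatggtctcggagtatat

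Ngp held these letters at 2 places, 138 and 11 bases before the start, Ltf at 1 place 75 bases before it and Lcn2 at 1 place 216 bases before it. Of 32851 mouse promoters of the same length 3142 (9.56%) held a match, against 3 of these 5. A match is a description of the sequence and not a bound site, and the lack of one in Camp and Chil3 says only that these letters are not in this window.

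Camp, which encodes the antimicrobial peptide cathelicidin, was at 18428, 11002 and 17535 CPM under vehicle and 15819, 0 and 14003 under PLX5622. Ngp, a cystatin-like granule protein of mouse neutrophils, was at 20619, 13601 and 19522 CPM under vehicle and 18884, 0 and 18935 under PLX5622. Ltf, the iron-binding lactoferrin, was at 6953, 4071 and 5638 CPM under vehicle and 7799.6, 0 and 5611 under PLX5622. None of the 3 had a single UMI among the 26536 of the 7 dpi PLX5622 library, where 3 UMIs, the floor set for a count of 0, would be 113 CPM. All 3 were at 4071 CPM or more in each of the other 5 libraries. Against the 7 dpi vehicle library, Camp was at least 97.3-fold lower, Ngp at least 120.3-fold lower and Ltf at least 36-fold lower there. Lcn2, which binds bacterial siderophores, was at 7778, 6389.6 and 8401 CPM under vehicle and 7946, 188 and 10146 under PLX5622, with 5 UMIs behind the low value and a log2 ratio of -5.08 (-6.71 to -3.86). Chil3, a chitinase-like lectin, was at 3715, 1936 and 2718 CPM under vehicle and 2404, 0 and 1909 under PLX5622, at least 17.1-fold lower in the same library. Cebpe, the transcription factor of the secondary granule stage, was at 204, 127 and 254 CPM under vehicle and 275, 113 and 192 under PLX5622, with 3 UMIs in the 7 dpi PLX5622 library. Its log2 ratio there was -0.17 (-2.48 to 1.45), an interval that spans 0.

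Counted as a list, 6 of the 10 tested secondary granule genes were called lower in the 7 dpi PLX5622 library against vehicle and 0 higher. The list median was -3.48 beside 0.23 over all 1096 genes tested, of which 13.5% were called lower. The 6 were Camp, Ngp, Ltf and Chil3 with 0 UMIs in that library, Lcn2 with 5 and Ifitm6 with 1. In the sham and 28 dpi diet comparisons the list medians were -0.08 and 0.01. Ifitm6 alone was called higher in the first, where 2.51% of 677 genes were called higher, and 0 in the second, where 5.57% of 879 genes were called higher.

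Within a library, single neutrophils differed widely in these transcripts. Camp, Ngp, Ltf, Lcn2 and Chil3 together took a median of 0.627%, 0.433% and 1.72% of a cell's UMIs under vehicle and 0.155%, 0% and 0.410% under PLX5622, while 106 of the 531 cells had no UMI of the 5. Set into ranges, 301 cells had under 1%, 86 had 1 to 5% and 144 had at least 5%; these are ranges of a continuous score and not types, with 77 cells between 0.5 and 2% and 33 between 4 and 6%. Cells with at least 5% made up 23.4% (13.8 to 35.7), 19.7% (14.7 to 25.6) and 39.7% (32.7 to 47.0) of neutrophils under vehicle and 18.2% (2.28 to 51.8), 0% (0 to 26.5) and 25.0% (11.5 to 43.4) under PLX5622. The 28 dpi vehicle share lay above that of 7 dpi vehicle with no overlap of the intervals. All 12 cells of the 7 dpi PLX5622 library were under 1%, and 12 of 12 leaves room for a true share down to 73.5%; the 7 dpi vehicle library had 63.2% (56.5 to 69.6) of its cells there, below that bound.

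**Figure D2:**
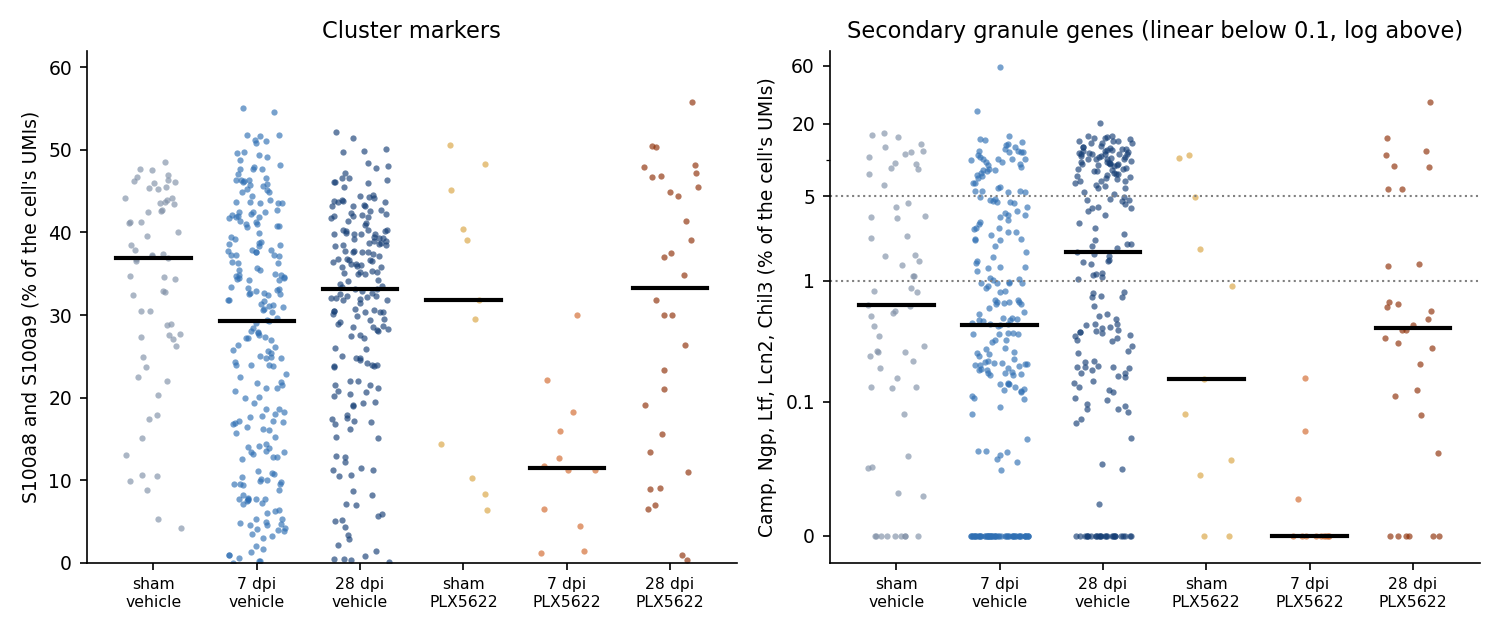
Percent of each neutrophil's UMIs from S100a8 and S100a9 and from Camp, Ngp, Ltf, Lcn2 and Chil3 (y axes, the second linear below 0.1 and logarithmic above, with dotted lines at 1 and 5%), by library, with 1 point per cell and a bar at the median. Vehicle libraries spread over the whole granule scale, whereas the 12 cells of 7 dpi PLX5622 all lie under 1%.

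The 2 ends of that scale also differed in genes that the score did not hold. Cells with at least 5% were deeper, with medians of 7075, 2611 and 1959 UMIs against 2070, 873 and 826 UMIs in the cells under 1%. Cybb, the catalytic subunit of the phagocyte oxidase, was higher at the high end, with log2 ratios of high to low range of 2.97, 2.57 and 2.57 in the sham, 7 dpi and 28 dpi vehicle libraries. Cebpe was higher there by 2.40, 3.17 and 4.93, the lipid mediator receptor Ltb4r1 by 2.71, 1.65 and 3.02, the surface protein Cd177 by 1.01, 2.71 and 2.72 on the same scale. Anxa1, an annexin with anti-inflammatory actions, was higher there by 2.16, 2.31 and 2.70. Il1b and Cxcr2 were higher at the low end. Il1b was at 1281, 865 and 440 CPM in the low range of the 3 vehicle libraries and at 0, 77.5 and 64.8 CPM in the high range. Cxcr2 was at 1372, 671 and 597 CPM in the low range against 252, 247 and 206 CPM. The log2 ratios of high to low range of Retnlg were -2.88, -1.31 and -2.02. Those of Csf3r, the receptor for G-CSF, were -3.02, -1.56 and -2.72, and those of the chemokine gene Ccl6 were -4.22, -2.55 and -2.71. Mmp9 differed by -0.81, 0.04 and 0.10 and Mmp8 by -0.04, 0.70 and 0.71, less than 2-fold in each library. Some genes differed in sign between the libraries, as did Cd63, a tetraspanin of granule and lysosome membranes, with 0.78, -1.48 and -1.50. These genes took part in the clustering of the cells, and the ranges were set after the data were seen. In the 7 dpi and 28 dpi vehicle libraries 63 of 141 and 39 of 83 cells of the low range had over 1% macrophage transcripts, against 5 of 44 and 18 of 75 of the high range, and their part in these ratios was not tested.

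After injury under vehicle, more genes were called higher than lower against sham over all neutrophils. Of 1582 genes tested at 7 dpi 299 were called higher (18.9%) and 84 lower (5.31%), or 24.2% in either direction. At 28 dpi 202 of 1322 genes were called higher (15.3%) and 79 lower (5.98%). With S100a8 and S100a9 left out of the totals the splits over all genes were 240 higher and 195 lower at 7 dpi and 172 higher and 174 lower at 28 dpi. Without cells holding 3 or more macrophage UMIs, which left 46 sham, 9 of the 223 7 dpi and 8 of the 189 28 dpi cells, they turned to 13 higher and 45 lower at 7 dpi and 32 higher and 46 lower at 28 dpi. In cells under 1% macrophage transcripts they were 103 and 46 at 7 dpi and 39 and 45 at 28 dpi.

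Several receptors were among the genes at a lower level at 28 dpi under vehicle. Cxcr2 was at 807, 482 and 397 CPM under vehicle and 881, 1055 and 858 under PLX5622, lowest at 28 dpi under vehicle. With cells thinned to 500 UMIs, a Cxcr2 UMI was found in 42.2%, 27.4% and 21.7% of neutrophils under vehicle and 45.5%, 8.33% and 40.6% under PLX5622. The 7 dpi PLX5622 library was then lowest with 1 of 12 cells, and its thinned log2 ratio to vehicle was -1.01, opposite in sign to that of pooled UMIs. Its log2 ratio at 28 dpi against sham was -1.02 (-1.34 to -0.71). Ccr1, a receptor for Ccl3 and related chemokines, was at 477, 300.1 and 201 CPM under vehicle and 679, 791 and 577 under PLX5622, with -1.24 (-1.68 to -0.82) at 28 dpi against sham. C5ar1, the receptor for complement fragment C5a, was at 423, 237 and 185 CPM under vehicle and 514, 716 and 397 under PLX5622, with -1.20 (-1.65 to -0.75) in the same comparison. As a list, 4 of 9 tested chemoattractant receptors were called lower at 28 dpi against sham and 0 higher, with a median of -0.70 beside -0.13 over all genes, of which 5.98% were called lower. At 7 dpi 0 of 10 were called lower and 1 higher, with a median of -0.67, where 18.9% of all genes were called higher. Of the 189 cells of the 28 dpi vehicle library 181 held 3 or more UMIs of microglia and macrophage genes. Without such cells, with 46 sham and 8 of the 28 dpi cells left, the log2 ratio of Cxcr2 at 28 dpi was 0.12.

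Anxa1 lay below its sham level at both times after injury, past 2-fold at 7 dpi only. It was at 2377, 712 and 1307 CPM under vehicle and 2147, 415 and 1589 under PLX5622. Against sham its log2 ratio under vehicle was -1.74 (-1.93 to -1.55) at the early time point. At 28 dpi it was -0.86 (-1.04 to -0.69). Genes were also named by rank of their ratio, among those with at least 100 UMIs in the pair and 10 in each library (50 and 5 between diets). Gadd45a, a growth arrest gene, ranked lowest at 7 dpi with -1.81 (-2.45 to -1.19), before Anxa1 and then Mgst1, a membrane glutathione transferase, with -1.57 (-1.87 to -1.28). At 28 dpi the lowest were Stfa2l1, a stefin of neutrophils, with -2.06 (-2.65 to -1.50) and the chemokine gene Cxcl2 with -2.01 (-2.61 to -1.44). Of 15 early response genes 2 were called lower at 7 dpi and 3 at 28 dpi and 0 higher at either, beside 5.31% and 5.98% of all genes called lower. The other 13 and 12 were within 2-fold, with list medians of -0.61 and -0.89 beside 0.03 and -0.13 over all genes. Zfp36, which destabilizes cytokine mRNAs, was at 771, 340.3 and 391 CPM under vehicle and 440.4, 1583 and 756 under PLX5622. Junb, a subunit of AP-1, was at 1026, 664 and 455 CPM under vehicle and 899, 2713 and 692 under PLX5622.

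Wfdc17 and Ifitm1 were among the genes at a higher level at 7 dpi than in sham. Wfdc17, a small secreted protein of myeloid cells, was at 57.4, 913 and 367 CPM under vehicle and 771, 301 and 1704 under PLX5622, lowest in vehicle sham with 16 UMIs. Its log2 ratio at 7 dpi against sham was 3.99 (3.28 to 4.81). In the monocytes of the same libraries Wfdc17 was at 1418, 1842 and 1719 CPM under vehicle and 789.7, 806 and 549 CPM under PLX5622. Other cell types of the vehicle libraries were also higher at 7 dpi than at sham, B cells with 13.6, 905 and 116 CPM, T cells with 3.6, 432 and 130 CPM and endothelial cells with 22.6, 384 and 108 CPM. The neutrophils of 7 dpi vehicle were thus level with the B cells beside them, and the part of free RNA in their value was not tested. Under PLX5622 at sham and 28 dpi the B, T and endothelial cells were at 51.6 CPM or less. Ifitm1, an interferon-induced membrane protein, was at 126, 448 and 159.9 CPM under vehicle and 514, 716 and 1012 under PLX5622, with 1.84 (1.32 to 2.40) at 7 dpi against sham. Ifitm2 of the same family was at 477, 998 and 571 CPM under vehicle and 863, 1771 and 1294 under PLX5622. Of the interferon response list, 2 of 9 tested genes were called higher at 7 dpi against sham and 0 lower, with a median of -0.29, near the 18.9% called higher over all genes, and 0 of 6 were called at 28 dpi.

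**Figure D3:**
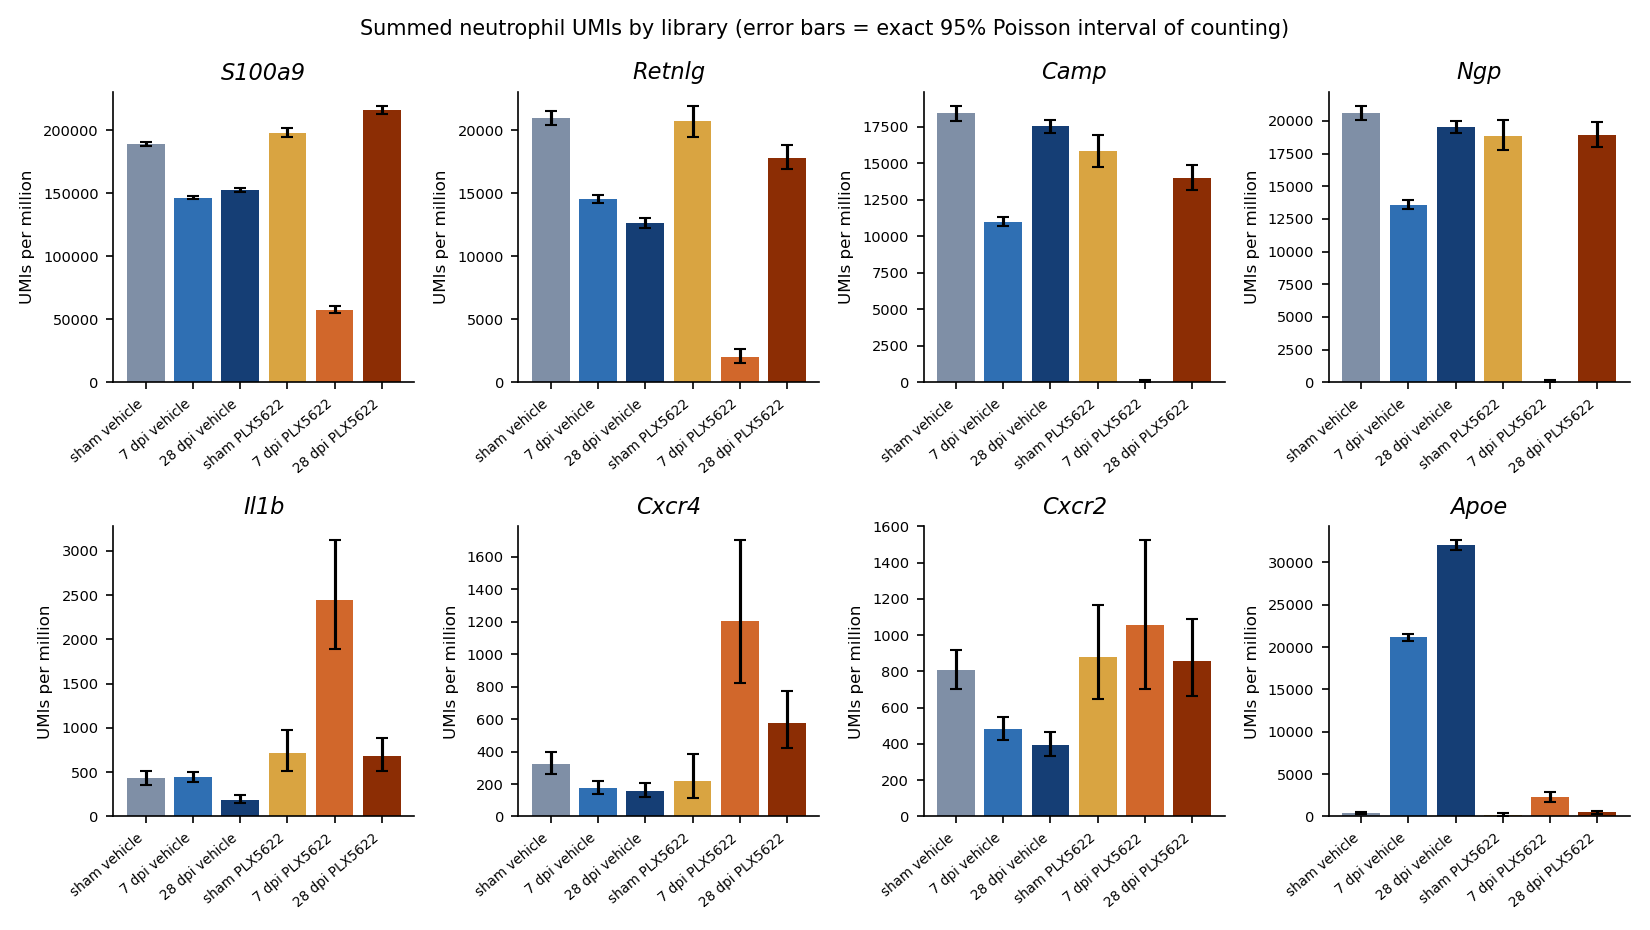
Level (CPM of pooled neutrophil UMIs, y axis from 0) of S100a9, Retnlg, Camp, Ngp, Il1b, Cxcr4, Cxcr2 and Apoe in the 6 libraries, with exact 95% Poisson intervals. Camp and Ngp are at 0 and Retnlg lowest in the 7 dpi PLX5622 library, where Il1b and Cxcr4 are highest, and Apoe is highest in the 2 injured vehicle libraries.

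Between 28 and 7 dpi under vehicle the neutrophils differed in few genes: 13 of 1726 genes were called higher at 28 dpi (0.753%) and 41 lower (2.38%), 3.13% in all. Secondary granule genes had a median of 0.48 beside -0.09 over all genes, with 1 of 10 called higher, Cebpe at 1.00 (0.52 to 1.49). Anxa1 was higher at 28 dpi than at 7 dpi by 0.88 (0.67 to 1.08), though below sham at both. Il1b, the main interleukin-1 that neutrophils release, was at 434, 444 and 190.2 CPM under vehicle and 716, 2449.5 and 679 under PLX5622. It was lowest at 28 dpi under vehicle, with -1.22 (-1.64 to -0.82) against 7 dpi, where sham and 7 dpi vehicle were level. Without cells holding 3 or more macrophage UMIs, which left 46, 9 and 8 cells, the ratio of 28 to 7 dpi was -0.14, that of 28 dpi to sham turned to 0.62, and 1 gene in all was called between 28 and 7 dpi. Cxcl2, a ligand of Cxcr2, was at 377, 249 and 93.7 CPM under vehicle and 0, 829 and 282 under PLX5622, with -1.41 (-2.01 to -0.85), and Ifitm1 was lower with -1.49 (-1.93 to -1.06). S100a4, a calcium-binding protein linked to cell motility, was at 61.0, 228 and 60.7 CPM under vehicle and 0, 0 and 12.8 under PLX5622, with -1.91 (-2.64 to -1.24); in the cells under 1% granule genes alone that ratio was 0.015.

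Under PLX5622 without injury, 17 of 677 genes were called higher than in vehicle sham (2.51%) and 47 lower (6.94%), 9.45% in all, from 11 cells. The split was 49 and 50 with each cell weighted alike, 14 and 16 in cells under 1% granule genes and 4 and 1 in thinned cells. The markers were level: the log2 ratios of S100a8, S100a9 and Retnlg were 0.06, 0.07 and -0.02, and 0 of the 5 were called. Wfdc17 stood highest of the genes named by rank with 3.75 (2.89 to 4.68), and Ifitm1 was higher with 2.03 (1.26 to 2.79). Of the interferon list 2 of 5 tested genes were called higher and 0 lower, with a median of 0.85 beside -0.08 over all genes, the second being Rsad2, the antiviral protein viperin, with 1.44 (0.53 to 2.30). Gm5483, a stefin family gene, was at 186, 133 and 146 CPM under vehicle and 1028, 1168 and 218 under PLX5622, with 2.46 (1.89 to 3.04). In cells under 1% granule genes its ratio was -1.20 (-2.88 to 0.12), with 5 UMIs in 7 sham PLX5622 cells. The 2 cells of that library with at least 5% held 0, so its other UMIs there came from the 2 cells at 1 to 5%. Of 13 early response genes 4 were called lower and 0 higher, with a median of -0.81. Fos, a subunit of AP-1, was at 1187, 704 and 631 CPM under vehicle and 459, 1545 and 589 under PLX5622. Dusp1, a phosphatase that turns off MAP kinases, was at 1173, 839 and 596 CPM under vehicle and 459, 2713 and 692 under PLX5622.

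At 7 dpi the 12 neutrophils of the PLX5622 library differed from those of vehicle in 358 of 1096 genes (32.7%), 210 higher (19.2%) and 148 lower (13.5%). That split depended on the scaling. The TMM factors of edgeR moved the median of all genes from 0.23 to -0.86 and gave 18 higher and 473 lower. The size factors of DESeq2 moved it to -0.45 with 50 higher and 315 lower, and totals without the calprotectin genes gave 130 higher and 177 lower. The lower calls in secondary granule genes, Mmp8 and Retnlg are given above, and they were larger under each of those scalings. The diet ratios of all neutrophils at 7 dpi that follow are on the unscaled CPM of pooled UMIs, and each of them dropped by 1.09 under TMM.

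Several chemoattractant receptors were high in those 12 cells. Cxcr4 was at 323, 175 and 159.9 CPM under vehicle and 220.2, 1206 and 577 under PLX5622, highest at 7 dpi and next highest at 28 dpi under PLX5622. Its log2 ratio of PLX5622 to vehicle at 7 dpi was 2.78 (2.14 to 3.39), the second highest among the genes named by rank. Csf3r was at 563, 560.1 and 372 CPM under vehicle and 844, 1469.7 and 679 under PLX5622, with 1.39 (0.87 to 1.88), Ccr1 had 1.40 (0.66 to 2.07) and C5ar1 had 1.60 (0.81 to 2.31). The formyl peptide receptor Fpr1 was at 237, 148 and 146 CPM under vehicle and 349, 301 and 128 under PLX5622, its ratio of 1.03 (-0.24 to 2.08) spanning 0. Of the 10 tested receptors 6 were called higher and 0 lower, beside 19.2% and 13.5% of all genes, with a median of 1.08 beside 0.23, and the list's median was 0.40 with DESeq2's factors and -0.0094 with TMM.

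Il1b was at its highest there, with a log2 ratio of PLX5622 to vehicle at 7 dpi of 2.46 (2.04 to 2.87), and was 1.38 under TMM. An Il1b UMI was found in 31.3%, 35.9% and 19.0% of neutrophils under vehicle and 54.5%, 75.0% and 37.5% under PLX5622, against 1.46% or less of the T and B cells of each library. Thinned to 500 UMIs per cell the neutrophil shares were 15.6%, 23.3% and 14.8% and 45.5%, 66.7% and 25.0%. Ccl3, a ligand of Ccr1, was at 61.0, 133 and 157 CPM under vehicle and 0, 754 and 256 under PLX5622, with 2.50 (1.70 to 3.25), and Cxcl2 was higher by 1.73 (1.01 to 2.40). Of the 7 cytokine and chemokine genes tested 6 were called higher and 1 lower, beside 19.2% and 13.5% of all genes, with a median of 1.69, or 1.01 and 0.60 with DESeq2's and TMM factors. A Cxcr4 UMI was found in 65.6%, 29.1% and 24.3% of neutrophils under vehicle and 81.8%, 91.7% and 68.8% under PLX5622, against 12.4 to 31.1% of T and B cells, which use the gene themselves. Thinned neutrophil shares were 21.9%, 10.3% and 8.99% and 18.2%, 33.3% and 25.0%.

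Early response genes were the list with the most calls at 7 dpi under PLX5622. Of 15 tested genes 11 were called higher and 0 lower, beside 19.2% of all genes called higher. Their median was 1.16, which came to 0.48 with DESeq2's factors and 0.07 with TMM. Zfp36 was higher by 2.22 (1.69 to 2.72), Junb by 2.03 (1.64 to 2.41) and Dusp1 by 1.69 (1.31 to 2.06). Outside the list, the inhibitory receptor gene Cd300a was at 158, 99.3 and 44.1 CPM under vehicle and 128, 678 and 76.9 under PLX5622, with 2.77 (1.90 to 3.58). Trem1, a receptor that amplifies neutrophil activation, was at 122, 86.7 and 44.1 CPM under vehicle and 147, 415 and 154 under PLX5622, with 2.26 (1.15 to 3.24). Cstb, an inhibitor of cathepsins, was at 104, 329.7 and 132 CPM under vehicle and 73.4, 1922 and 372 under PLX5622, with 2.54 (2.06 to 3.01). G0s2, an inhibitor of lipolysis, was at 545, 393 and 380.5 CPM under vehicle and 275, 1884 and 307 under PLX5622, with 2.26 (1.78 to 2.72). Of 9 Fc receptor and lectin genes 3 were called higher and 0 lower, beside the same 19.2%, with a median of 0.65 that turned to -0.03 with DESeq2's factors and -0.43 with TMM. Ubb, a ubiquitin gene, was higher by 2.64 (2.11 to 3.14), and its level in the T cells of the 6 libraries also differed by diet, at 698, 262 and 290.0 CPM and 1326, 842 and 934 CPM.

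Since the 7 dpi PLX5622 neutrophils all had under 1% granule transcripts, the diets were also compared over only the cells in that range. These were not alike in macrophage RNA, as 63 of the 141 vehicle cells and 2 of the 12 PLX5622 cells had over 1% of it and Apoe was at 29556 and 2261 CPM, and its part in the ratios was not tested. Of the 141 vehicle and 12 PLX5622 cells at 7 dpi, Cxcr4 gave a log2 ratio of 2.37 (1.67 to 3.05) and Il1b of 1.50 (1.07 to 1.92). Cstb gave 2.18 (1.65 to 2.70), G0s2 2.17 (1.64 to 2.70), Cd300a 2.39 (1.44 to 3.31) and Trem1 1.80 (0.62 to 2.88). Retnlg remained low with -3.05 (-3.47 to -2.66), as did Mmp8 with -2.86 (-4.50 to -1.62). Cxcr2 came to 0.65 (0.01 to 1.25), Ccr1 to 0.92 (0.16 to 1.63), Dusp1 to 0.79 (0.40 to 1.16) and S100a8 to -0.24 (-0.32 to -0.17), all under 2-fold. In this range 57 genes were called higher and 81 lower at 7 dpi, a split opposite to the 210 and 148 over all neutrophils.

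At 28 dpi the PLX5622 library had 49 of 879 genes called higher (5.57%) and 206 lower (23.4%) against vehicle, from 32 and 189 cells. In cells under 1% macrophage transcripts these were 27 and 40, and without cells holding 3 or more macrophage UMIs 12 and 2, with 22 and 8 cells left. The excess of lower calls was smaller in the first and not kept in the second. Ifitm1 headed the genes named by rank with 2.66 (2.15 to 3.18), Wfdc17 followed with 2.22 (1.86 to 2.57) and the chemokine gene Ccl4 with 1.98 (1.43 to 2.52). Cxcr4 was higher by 1.85 (1.26 to 2.44) and Il1b by 1.84 (1.29 to 2.37), as they were at 7 dpi. For both, the 28 dpi vehicle ratio to sham changed direction without cells holding 3 or more macrophage UMIs. The 2 diet comparisons use separate libraries. Of the 843 genes tested at both days, 68 were called in the same direction. In opposite directions 6 were called with both intervals clear of 0. The 68 did not have to meet that rule, so the counts are not alike. Ccr1 was higher at 28 dpi by 1.52 (0.95 to 2.07), Cxcr2 by 1.11 (0.67 to 1.54) and C5ar1 by 1.10 (0.44 to 1.74). In all, 4 of 8 tested receptors were called higher and 0 lower, with a median of 0.99 beside -0.05.

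At 28 dpi 4 of 6 cytokine and chemokine genes were called higher and 0 lower, with a median of 1.49, where 5.57% of all genes were called higher and 23.4% lower. Of 12 early response genes 0 were called, with a median of 0.29. Clec4e, the lectin receptor Mincle, was at 229.5, 144 and 141 CPM under vehicle and 165, 226 and 487 under PLX5622, with 1.79 (1.15 to 2.43). Secondary granule genes were level with vehicle, as Camp was at -0.32 (-0.42 to -0.23) and Ngp at -0.04 (-0.13 to 0.04). The calprotectin genes were higher by less than 2-fold, S100a8 by 0.54 (0.51 to 0.57) and S100a9 by 0.50 (0.48 to 0.53). In the cells under 1% granule genes, 22 and 83 of them, Il1b gave 1.67 (1.10 to 2.24), Cxcr4 2.31 (1.46 to 3.18) and C5ar1 1.81 (0.92 to 2.70). Ifitm1 gave 2.59 (2.04 to 3.16) and Wfdc17 2.43 (2.02 to 2.84), and all 5 were more than 2-fold higher under PLX5622. Of these cells 0 of 22 under PLX5622 and 39 of 83 under vehicle had over 1% macrophage transcripts. Without the cells that held 3 or more macrophage UMIs, which left 22 PLX5622 and 8 vehicle cells, Cxcr2 came to -0.22 and C5ar1 to -0.37.

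**Figure D4:**
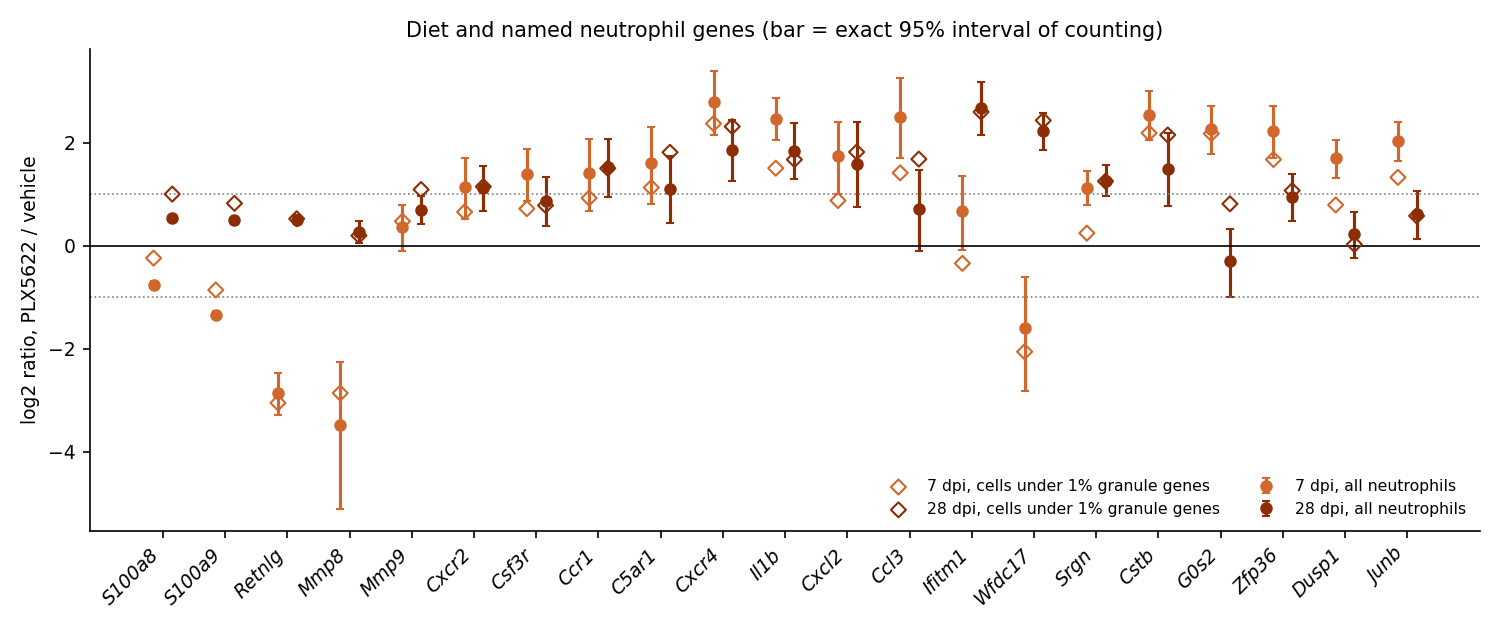
Log2 ratio of PLX5622 to vehicle (y axis) at 7 and 28 dpi for 21 neutrophil genes (x axis), with filled points for all neutrophils and their exact 95% intervals, open diamonds for cells under 1% granule transcripts, and dotted lines at 2-fold. Il1b and Cxcr4 lie above 2-fold at both days, Retnlg and Mmp8 lie more than 2-fold below vehicle at 7 dpi only, and Ifitm1 and Wfdc17 lie above 2-fold at 28 dpi.

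Lists of oxidase, adhesion and glycolysis genes had 0 to 2 calls in each comparison. Of the 6 NADPH oxidase subunits 0 were called at 7 dpi against sham, 1 lower at 28 dpi against sham and 1 lower at 7 dpi under PLX5622, beside 5.98% and 13.5% of all genes called lower, with list medians between -0.37 and 0.37 over the 6 comparisons. The exception under PLX5622 was Cybb, at 1933, 1213 and 1555 CPM under vehicle and 1358, 37.7 and 1422 under PLX5622, where 1 UMI stood behind the 7 dpi PLX5622 value and the log2 ratio was -5.01 (-10.31 to -2.52). Its partner Cyba was at 1388, 1524 and 1701 CPM under vehicle and 1321, 1394 and 1832 under PLX5622, within 2-fold across all 6 libraries. Adhesion genes had medians between -0.64 and 0.46, with at most 1 of 8 to 10 called in either direction in any comparison. They were 1 higher and 1 lower at 7 dpi against sham, beside 18.9% and 5.31% of all genes, 1 lower at 28 dpi against sham, beside 5.98%, and 1 higher and 1 lower at 7 dpi under PLX5622, beside 19.2% and 13.5%. Itgam, the integrin chain CD11b, was at 828, 427 and 496 CPM under vehicle and 569, 565 and 628 under PLX5622. Of the glycolysis list at most 2 of 8 to 10 tested genes were called in a comparison, the 2 being lower at 7 dpi under PLX5622 beside the same 13.5%. Of the survival and death list 2 of 5 tested genes were called higher and 1 lower at 7 dpi against sham, beside 18.9% and 5.31% of all genes, 1 of 3 lower at 28 dpi against sham, beside 5.98%, and 2 of 3 higher and 1 lower at 7 dpi under PLX5622, beside 19.2% and 13.5%. Those called were Bax, which permeabilizes mitochondria, with 1.35 against sham and 1.63 under PLX5622 at 7 dpi, and Bcl2a1b, a survival gene with near-identical copies that can share reads, with 3.96 and -1.15. The others were Anxa11, an annexin, with -1.37 and -2.25 against sham at 7 and 28 dpi, and Mcl1. Without cells holding 3 or more macrophage UMIs the 28 dpi ratio of Anxa11 turned to 0.82. Mcl1, the main survival protein of neutrophils, was at 764, 617 and 516 CPM under vehicle and 991, 1922 and 615 under PLX5622. It was higher by 1.64 (1.18 to 2.07) at 7 dpi under PLX5622.

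Among the genes named by rank, transcripts of macrophages, led by Apoe, had the highest ratios to sham in the injured vehicle neutrophils. The same genes were also higher in other cell types of those libraries. Apoe, the lipoprotein gene of microglia and MDMs, was at 416, 21170.3 and 32031 CPM under vehicle and 202, 2261 and 474 under PLX5622 in neutrophils. In T cells of the same libraries Apoe was at 817, 46392 and 39060 CPM and 78.6, 1314 and 1973 CPM, and in MDMs at 62248, 95581 and 106535 CPM and 34226, 73090 and 74407 CPM. All 12 tested genes of the microglia and macrophage list were called higher in neutrophils at 7 dpi against sham and all 11 at 28 dpi, with medians of 4.74 and 5.24, where 18.9% and 15.3% of all genes were called higher. Under PLX5622 against vehicle 9 of 12 were called lower at 7 dpi and 11 of 11 at 28 dpi, beside 13.5% and 23.4% of all genes. C1qa, a subunit of complement C1q, was at 61.0, 1763 and 2892 CPM under vehicle and 36.7, 37.7 and 64.1 under PLX5622. Spp1, which encodes osteopontin, was at 17.9, 2522 and 1853 CPM under vehicle and 18.4, 1733 and 115 under PLX5622.

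Per cell, the 17 genes of that list took a median of 0.0327%, 0.719% and 0.725% of neutrophil UMIs under vehicle and 0.0179%, 0.360% and 0.113% under PLX5622. The medians were 0.0386%, 0.759% and 0.773% and 0%, 0.111% and 0.0790% in T cells, and 0.157%, 0.612% and 0.738% and 0.124%, 0.252% and 0.189% in endothelial cells. In MDMs they were 8.97%, 15.4% and 15.7% and 7.21%, 15.9% and 12.8%. The median neutrophil, T cell and endothelial cell thus held similar shares in the injured vehicle libraries, far below an MDM. An Apoe UMI was found in 98.2% and 98.9% of neutrophils of the 7 dpi and 28 dpi vehicle libraries and in 98.0% and 98.7% of their T and B cells. Above this level, 35 neutrophils at 7 dpi (15.7%) and 45 at 28 dpi (23.8%) under vehicle had over 2% of the list, and they held 89.1% and 92.7% of its UMIs, while 0 neutrophils of the other libraries did. The part of free RNA or of joined cells in these values was not tested.

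**Figure D5:**
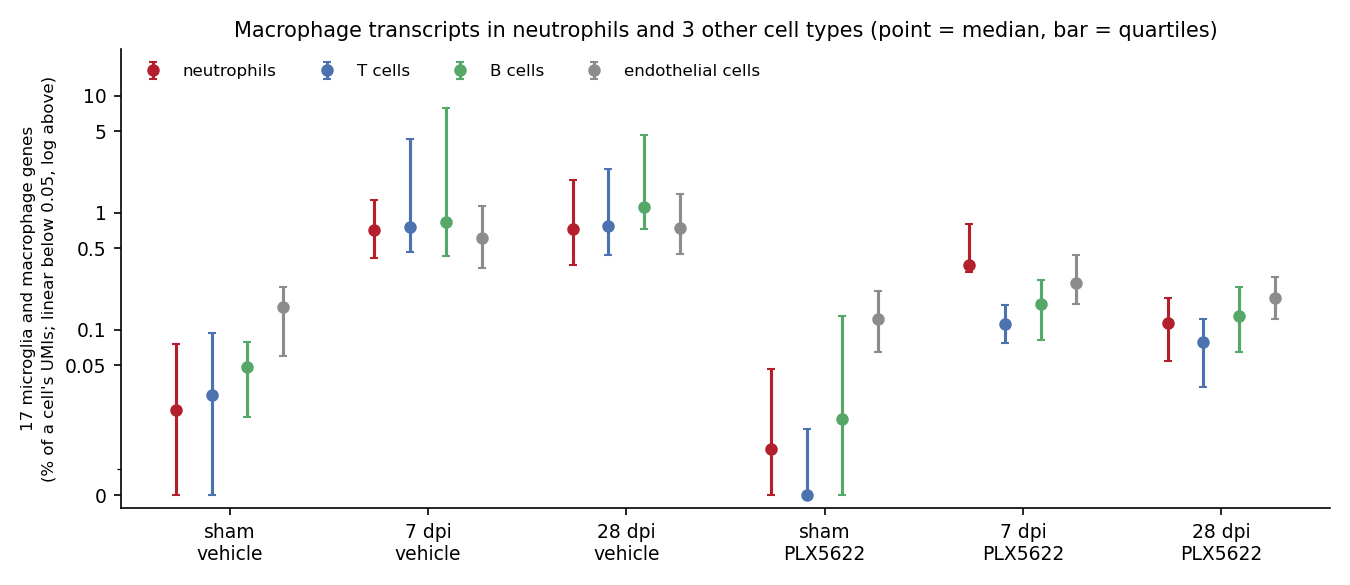
Median and quartiles of the percent of a cell's UMIs from the 17 microglia and macrophage genes (y axis, linear below 0.05 and logarithmic above) in neutrophils, T cells, B cells and endothelial cells of each library. Medians of all 4 cell types lie between 0.612% and 1.12% in the injured vehicle libraries and at or below 0.360% elsewhere.

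Lysosomal, lipid and ribosomal genes were also higher in the injured vehicle libraries than in sham. At 7 dpi against sham 19 of 20 tested lysosome and lipid genes were called higher and 0 lower, with a median of 2.98, and at 28 dpi 16 of 17, with a median of 3.48, beside 18.9% and 15.3% of all genes. In the neutrophils with under 1% of the macrophage list these medians were 1.38 and 1.26. Ribosomal protein genes were called higher in 73 of 78 at 7 dpi and 70 of 79 at 28 dpi against sham, with medians of 1.71 and 1.66, and of 1.18 and 0.79 in the cells under 1%. They took a median of 2.58%, 5.86% and 4.85% of neutrophil UMIs under vehicle and 3.24%, 5.90% and 3.40% under PLX5622, against 27.8%, 34.7% and 34.0% and 34.0%, 37.7% and 39.4% in T cells. At 7 dpi under PLX5622 0 of 78 ribosomal genes were called higher than under vehicle and 6 lower, with a median of -0.08, beside 13.5% of all genes called lower. At 28 dpi under PLX5622 68 of 78 ribosomal genes were called lower than under vehicle and 0 higher, beside 23.4% of all genes called lower, with a median of -1.77, or -0.81 in the cells under 1%.

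Of the genes that the study names for neutrophils, 12 were counted here, without S100a9 and others. They were chosen on these same cells, so their counts are no independent evidence. At 7 dpi against sham 4 of the 12 were called higher and 3 lower, and at 28 dpi 4 higher and 5 lower. Under PLX5622 4 of 10 were higher and 5 lower at 7 dpi, and 2 of 8 higher and 4 lower at 28 dpi. The shares of all genes called in either direction in these 4 comparisons were 24.2%, 21.3%, 32.7% and 29%. Apoe, C1qb and C1qc among them are macrophage genes, and the other members include Cxcr4, Cd300a, Anxa1 and Chil3, described above. Srgn, the core proteoglycan of granules, was at 950.3, 1469 and 755 CPM under vehicle and 881, 3203 and 1806 under PLX5622, higher under PLX5622 by 1.12 (0.78 to 1.45) on day 7. On day 28 the ratio was 1.26 (0.95 to 1.56). In cells under 1% granule transcripts those were 0.24 (-0.11 to 0.57) and 1.25 (0.92 to 1.57), and without cells that held 3 or more macrophage UMIs the 28 dpi ratio was -0.11.

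Genes of the primary granules came mostly from 5 cells. Elane, neutrophil elastase, had 145 and 27 UMIs in the 7 dpi and 28 dpi vehicle libraries, Mpo, myeloperoxidase, had 73 and 10, and both had 0 in the other 4. Of the 479 UMIs of Mpo, Elane, Prtn3, Ctsg and Ms4a3, those cells held 462 (96.5%). At 7 dpi they were 3 cells with 39, 180 and 160 such UMIs and 1026, 9 and 6 UMIs of S100a8 and S100a9, and at 28 dpi 2 cells with 3 and 80. The 3 cells richest in primary granule transcripts were thus poor in calprotectin. A UMI of the proliferation genes Mki67 or Top2a was found in 16 of 531 neutrophils (3.01%). Lists of T cell, B cell, red cell, endothelial and eosinophil, basophil and mast cell genes had 0 genes with enough UMIs to be compared, and each took at most 0.0187% of neutrophil UMIs in any library.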

How the data were processed

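Single cells of 6 libraries (10x Chromium 3' V3) were analysed; 14 bulk RNA samples of the series were not analysed here. The authors aligned reads with Cell Ranger (3.0.2 in the matrix header, mouse build mm10) and deposited UMI counts per gene and cell, a table of 16003 genes by 21016 cells, with clusters from Seurat after integration of the libraries. Those 21016 cells are the deposited barcodes without 254 that had fewer than 200 genes; the stated upper limit of 3000 genes was exceeded by 716 cells, 5 of them neutrophils, and the 24062 features held 0 mitochondrial genes. Deposited counts were summed over the neutrophils of a library and divided by their total, with Poisson, conditional binomial (ratios) and Clopper-Pearson (shares) intervals at 95%. Genes needed 50 UMIs in a pair, and a gene with 0 UMIs was set to 3 for a bound. The members and the 27 gene lists were chosen with earlier results of these data known. Genes were named by rank of their ratio and by list membership. Alternatives were TMM (edgeR 4.0.16) and DESeq2 (1.42.0) factors on the pooled counts, other totals, minimums, thinning to 500 UMIs, and leaving out doublets (Scrublet in scanpy 1.11.5), macrophage-rich or granule-rich cells, the last 2 kinds chosen after seeing the data. Scripts ran in Python 3.11.15 and were tested on simulated data.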

Additional observations from a re-analysis of the deposited data

Results flagged for a closer look

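Of 843 genes tested at both days, 6 differed between diets by at least 2-fold in opposite directions with both intervals clear of 0. The neutrophils of the PLX5622 library lay to one side of vehicle at 7 dpi and to the other side at 28 dpi. With 1 library per group this difference between days was not tested. Cd63, a tetraspanin of granule and lysosome membranes, was at 359, 739.8 and 888 CPM under vehicle and 275, 2902 and 397 under PLX5622, with a log2 ratio of PLX5622 to vehicle of 1.97 (1.60 to 2.33) on day 7. On day 28 its ratio was -1.16 (-1.74 to -0.63). Without the cells that held 1% or more of macrophage transcripts the 28 dpi ratio was 0.27. Wfdc17 went the opposite way, with -1.60 (-2.82 to -0.61) on day 7 and 2.22 (1.86 to 2.57) on day 28. The other genes were Cited2, a transcriptional regulator, with 2.20 and -1.37, Mt1, a metallothionein, with 1.46 and -2.16, Tmem30a, a subunit of lipid flippases, with 1.72 and -2.40, and Sri, the calcium-binding protein sorcin, with -2.54 and 1.18.

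Outside the neutrophil cluster, 52 of 20485 cells had over 5% of their UMIs from S100a8 and S100a9. Of these, 41 lay in the cluster the authors named intermediate progenitors, which has 617 cells, with medians of 35.3% of UMIs from the 2 genes and 11.4% from Camp, Ngp, Ltf, Lcn2 and Chil3. A UMI of Mki67 or Top2a was found in 39 of the 41 (95.1%), as in 91.4% of that cluster and 3.01% of the neutrophil cluster. They came from the vehicle libraries in 40 cases, 10 at sham, 18 at 7 dpi and 12 at 28 dpi, and 1 came from PLX5622. The rest were 6 ependymal cells, 3 endothelial cells and 2 oligodendrocyte lineage cells. Shares of neutrophils given in the report do not hold these cells.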

How the results depend on the processing

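No paired analysis was possible because each group was 1 library, and for the same reason no replicate could be left out. Counts of genes past 2-fold are given in the order 7 dpi against sham, 28 dpi against sham, 28 dpi against 7 dpi, then PLX5622 against vehicle at sham, 7 dpi and 28 dpi, where they were 383, 281, 54, 64, 358 and 255. Cells thinned to 500 UMIs gave 101, 80, 19, 5, 78 and 63. A minimum of 20 UMIs gave 906, 707, 335, 281, 1006 and 645, and one of 100 UMIs gave 206, 158, 24, 17, 176 and 148. Genes at least 5 times above T, B and endothelial cells in the library where they were higher gave 32, 31, 11, 12, 82 and 27; the change decides in part which genes enter, so no direction is read from this set. Without called doublets the counts at 7 dpi against sham, 28 dpi against sham and 28 dpi between diets were 240, 187 and 160. Cells under 1% macrophage transcripts gave 149, 84, 210 and 67 for the comparisons with sham and between diets at 7 and 28 dpi. Without cells holding 3 or more macrophage UMIs, which left 46 cells at sham, 9 at 7 dpi and 8 at 28 dpi under vehicle and none at 7 dpi under PLX5622, the other 5 comparisons gave 58, 78, 1, 37 and 14. Cells under 1% granule transcripts gave 30 and 138 between diets at sham and 7 dpi, and weighting each cell alike gave 119 for 28 against 7 dpi and 99 between diets at sham. The cause of these moves was not tested, apart from the fewer genes or cells that an alternative holds by construction.

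Of 179 gene ratios under all alternatives, 14 values changed direction where the ratio first given was past 2-fold. Another 1759 stayed within the interval of that first ratio and 644 lay outside it. Sign changes of ratios under 2-fold were not counted as changes of direction and fall among these. Without cells holding 3 or more macrophage UMIs, Cxcr2, Cxcr4, Il1b and Anxa11 at 28 dpi against sham were at 0.12, 0.34, 0.62 and 0.82, and Cxcr2, C5ar1, Srgn and Cd63 between diets at 28 dpi were at -0.22, -0.37, -0.11 and 0.45. Cd63 was at 0.27 in cells under 1% macrophage transcripts. In cells under 1% granule transcripts S100a4 at 28 against 7 dpi was at 0.015 and Gm5483 between diets at sham at -1.20. Between diets at 7 dpi, Fpr1 was at -0.061 and the receptor list median at -0.0094 with TMM factors, and thinned cells gave Cxcr2 -1.01 and Fpr1 -0.11.

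Shares without microglia were 5.71%, 4.22% and 3.22% at sham, 7 dpi and 28 dpi under vehicle, and without microglia and MDMs 6.84%, 9.86% and 7.39%, with 4.90% at 28 dpi under PLX5622. Over leukocytes they were 15.5%, 5.32% and 4.23% under vehicle and 15.1%, 6.45% and 6.69% under PLX5622. Thinned shares of cells with a UMI were 82.8% (vehicle sham) and 33.3% (7 dpi PLX5622) for Retnlg, 15.6% and 23.3% (vehicle sham and 7 dpi) for Il1b, and 21.9%, 10.3%, 8.99%, 18.2%, 33.3% and 25.0% over the 6 libraries for Cxcr4. The share of cells with 1% or more macrophage transcripts came to 0 at vehicle sham without doublets or with calprotectin at 5% or more, and to 0 at 7 dpi PLX5622 with the latter. The 11 and 12 neutrophils of 2 PLX5622 libraries limit what their 54490 and 26536 UMIs can show.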

Other observations

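Further genes of neutrophils were read in all 6 libraries, in the order of the report; they were picked after their values were seen. Slpi, a secreted inhibitor of neutrophil elastase, was at 1431, 1262 and 1307 CPM under vehicle and 2734, 2449.5 and 2242 under PLX5622, lowest in the 3 vehicle libraries. Hdc, which makes histamine, was at 359, 294 and 248 CPM under vehicle and 496, 226 and 512 under PLX5622, and Mxd1, a repressor of Myc target genes in maturing granulocytes, was at 674, 419 and 419 CPM under vehicle and 734, 603 and 871 under PLX5622. Mxd1 was within 2-fold of vehicle at sham and 7 dpi and just past it at 28 dpi, with log2 ratios of PLX5622 to vehicle of 0.12, 0.53 and 1.06 at sham, 7 dpi and 28 dpi. Fcer1g, the signalling chain of Fc receptors, was at 2209, 3086 and 2696 CPM under vehicle and 2459, 3316 and 2306 under PLX5622, a narrow span for libraries that differ so widely in Camp and Il1b. Ninj1, a membrane protein that ruptures dying cells, was higher under PLX5622 in each pair, by 1.84 (0.74 to 2.90) without injury, 2.40 (1.62 to 3.12) on day 7 and 2.06 (1.02 to 3.08) on day 28. Under TMM the 7 dpi value dropped by 1.09 and stayed above 0.

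Monocyte and dendritic cell genes took 0.522%, 0.340% and 0.403% of neutrophil UMIs under vehicle and 0.387%, 0.0188% and 0.281% under PLX5622. Chil3, a member of that list and of the secondary granule list, was at 3715, 1936 and 2718 CPM under vehicle and 2404, 0 and 1909 under PLX5622 and made up most of it in the 5 libraries other than that of 7 dpi PLX5622, where it had 0 UMIs. Oligodendrocyte genes took at most 0.0226% of neutrophil UMIs in any library, and astrocyte genes took at most 0.0904%, both in the 7 dpi PLX5622 library.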
